A study of Mus musculus with 16 samples.

Results

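The Sox2 locus is a 996 kb stretch of mouse chromosome 3 (mm9 chr3:34108880-35104879) in which contacts were counted by chromosome conformation capture carbon copy (5C). 5C amplifies ligation products between chosen HindIII fragments with alternating forward and reverse primers and counts each pair of fragments by sequencing. The members described here are all pairs of a forward and a reverse primer with both primers in this locus, without the pairs that have a fragment midpoint in the 16 kb window that holds the Sox2 gene (chr3:34540880-34556879). There were 16641 such pairs among 92436 possible pairs within the 7 loci of the untreated libraries, and the same 16641 among 32660 in the siRNA libraries. The rule uses position only and no measured contact. Pairs left out for the gene window numbered 651 and 519, because the siRNA experiment used 1 primer fewer there.

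The 3 untreated groups and 2 siRNA groups had 2 libraries each. V6.5 embryonic stem (ES) cells, male and of strain 129SvJae x C57BL/6, were kept without serum in 2i (LIF plus the kinase inhibitors CHIR99021 and PD0325901) or with serum and LIF. Neural progenitor cells (NPCs) came from whole brains of P1 mice of the same strain that carried Sox2-eGFP, were grown as neurospheres and were plated at 60000 cells per square cm before fixation. For the siRNA groups, NPCs of the same source were plated at 20000 cells per square cm and treated with 20 nM siRNA against YY1 or with control siRNA for 78 h, renewed every 24 h, and their 3C templates were made in situ. Where the eGFP sequence was inserted is not stated in the labels, so cell type, source and this allele cannot be told apart between NPCs and ES cells. The growth text of the control siRNA libraries names siRNA targeting YY1, against their titles, and the titles were used. No YY1 level and no gene expression are among the files used here, so neither the knockdown nor the cell types could be checked against marker genes. The labels do not tie the 2 libraries of a group to separate cultures, and p-values cover only the spread between these libraries, which may be technical.

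Sox2 is a transcription factor of pluripotent cells and of neural progenitors. Mammalian chromosomes fold into domains within which loci meet more often than across the borders between them. CTCF is a DNA-binding protein that holds many of these borders and loop anchors together with the ring-shaped cohesin complex, and YY1 is a zinc-finger protein that can also bring distant sites together. In ES cells, Sox2 is known to depend on a distal enhancer cluster, the Sox2 control region, whereas other enhancers act in neural cells. By name, Sox2 lies within the long non-coding RNA gene Sox2ot, and its nearest protein-coding neighbours are Dnajc19, which encodes a mitochondrial protein, on one side and Atp11b, which encodes a phospholipid flippase subunit, on the other. The files used here carry no enhancer annotation, and no window was assigned to an enhancer.

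Member counts ranged from 1386379 to 2984159 per untreated library and from 2554007 to 7391778 per siRNA library. Of the 16641 pairs, 95.2% to 98.8% had at least 1 count in an untreated library and 90.5% to 96.8% in a siRNA library. Between 40.2% and 67.7% of untreated member counts, and 31.6% to 35.0% of siRNA member counts, joined fragments in the same or in adjacent 16 kb windows. NPC libraries held the largest share of such short contacts (67.7% and 64.2%), followed by 2i (60.9% and 55.1%) and serum (48.4% and 40.2%), without overlap between the groups. All comparisons were therefore made against the distance trend of each library.

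To find borders, the counts of pairs that cross a given position were summed over pairs of 16 kb windows at least 32 kb apart and within 128 kb on each side, divided by the count expected from the distance trend of that library, and put on a log2 scale with the median of the locus at 0. A low value means that few contacts cross the position, which is called insulation. Each of the 55 positions had between 12960 and 111599 crossing counts in an untreated library and at least 25003 in a siRNA library. The SD between the 2 libraries of a group averaged 0.043 on this log2 scale in the untreated groups and 0.048 in the siRNA groups. Neighbouring positions share most of their primer pairs and are not independent of each other.

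In the mean of the 3 untreated groups the profile had 2 minima with a prominence of at least 0.3, at the left edge of the gene window (chr3:34540880, prominence 1.13) and 336 kb to the right of the gene window (chr3:34892880, prominence 0.42). They divide the locus into a left domain of 432 kb (chr3:34108880-34540879), a middle domain of 352 kb (chr3:34540880-34892879), which begins with the gene window, and a right domain of 212 kb (chr3:34892880-35104879). The border at the gene was found in the mean profile under all alternatives run, at chr3:34540880 or at chr3:34556880. The latter was its place with 12 windows on each side, without the largest primer pair of each window pair and without NPC replicate 2. The second border was not found with 12 windows on each side, with a prominence of 0.5, with window totals balanced, or in the authors' deposited observed values, and moved to chr3:34844880 with 4 windows on each side. The name right domain is therefore used only for the stretch beyond that minimum.

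At the left edge of the gene window the crossing values were -0.12 and -0.03 in 2i, -0.81 and -0.80 in serum, and -0.97 and -0.98 in NPCs. The 3 groups did not overlap. The position was the lowest of all 55 in both serum libraries and the second lowest in both NPC libraries, whose minimum lay at the right edge of the gene window (-1.08 and -1.05). In 2i the position ranked 24th and 25th from the lowest, and the nearest minimum lay 32 kb to the left of the gene window, at chr3:34508880 (-0.48 and -0.34). This place depends on the setting. With balanced windows the only border of the 2i mean profile lay at chr3:34540880 (-0.56, prominence 0.81). The serum border was then at the same position (-0.68, prominence 0.86). The 2i libraries were lowest at the second border, with -0.88 and -0.83, against -0.78 and -0.69 in serum and -0.59 and -0.43 in NPCs. Next to the border, 64 kb to the right of the gene window, crossing values reached 1.44 and 1.26 in 2i, the highest of those profiles, against 0.48 and 0.43 in serum and 0.20 and 0.07 in NPCs. The highest values of the NPC profiles lay in the left domain, at 1.02 and 1.07, where no ES library exceeded 0.29.

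**Figure D1:**
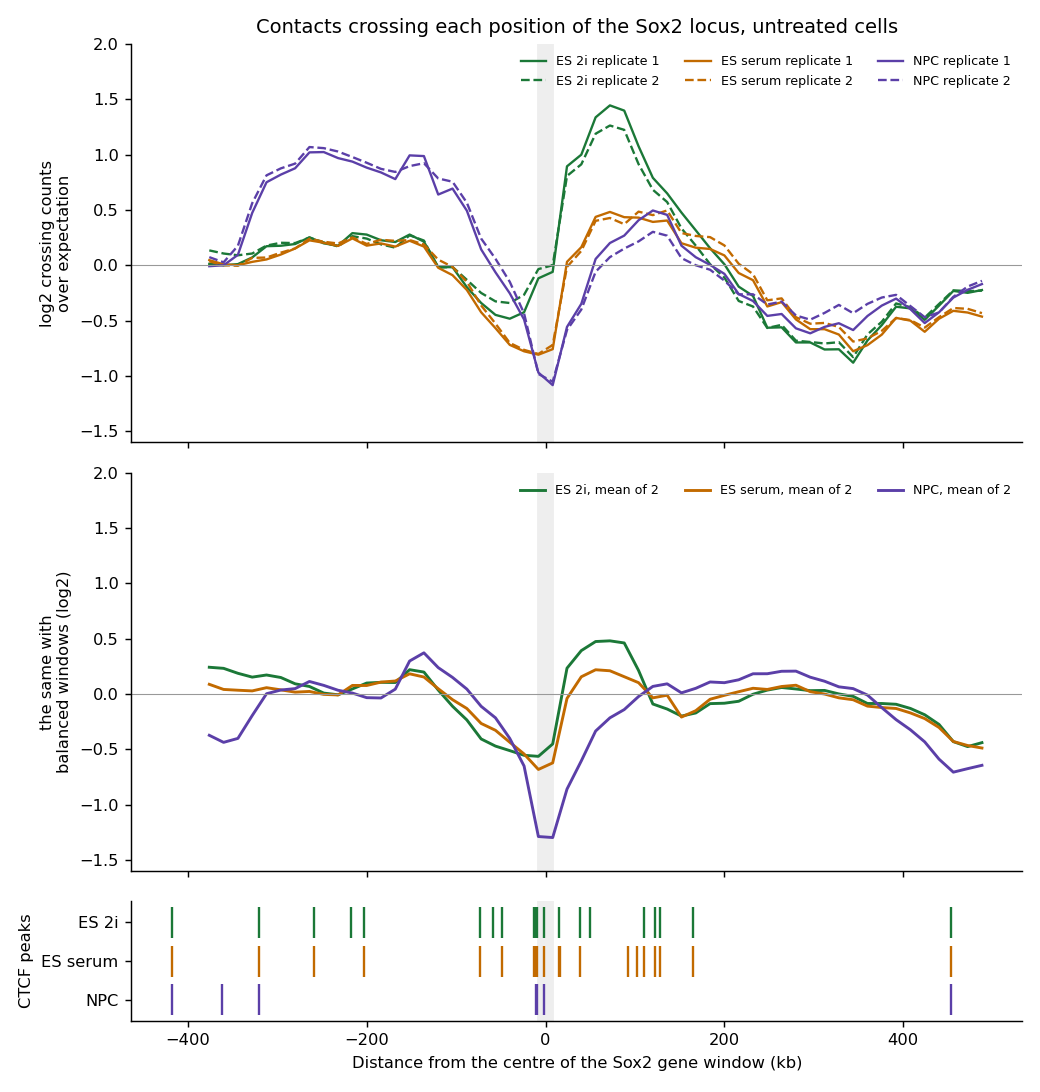
Contacts crossing each position of the Sox2 locus, as log2 counts over the distance expectation, against the distance from the centre of the gene window (grey band). Top, each of the 6 untreated libraries; middle, group means of 2 libraries after window totals were balanced; bottom, CTCF peaks of the 3 deposited lists. Before balancing, all libraries but those in 2i dip deepest or nearly so at the gene window. The high NPC values on the left are flattened by balancing.

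The first comparison asked how the crossing profile of NPCs differs from that of ES cells in 2i. Contacts across the edges of the gene window and across the stretch to its right were lower in NPCs, and contacts across most of the left domain were higher. The lowest difference of the locus lay 16 kb to the right of the gene window (chr3:34572880), where the values were 0.89 and 0.81 in 2i and -0.56 and -0.58 in NPCs. NPCs were thus 2.68-fold lower there, a log2 difference of -1.42 (SE 0.051, adjusted p = 1.65e-06, quasi-likelihood test of edgeR, Benjamini-Hochberg adjusted over the 404 positions of all loci). It was the largest fall among these 404 positions. At the left edge of the gene window the difference was -0.90 (SE 0.047, adjusted p = 6.73e-06), and 64 kb to the right of the gene window it was -1.22 (SE 0.077, adjusted p = 1.09e-05). The largest rise lay 240 kb to the left of the gene window (chr3:34300880), with 0.20 and 0.21 in 2i and 1.02 and 1.06 in NPCs, a log2 difference of 0.84 (SE 0.053, adjusted p = 1.09e-05).

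In all, 28 of the 55 positions were higher and 12 lower in NPCs than in 2i, or 72.7%, where 68.3% of positions over all loci passed the test in either direction. Over all loci 32.4% were higher and 35.9% lower, so the share called is near that of all loci, with more of it higher here. The 12 lower positions formed 1 run from chr3:34540880 to chr3:34716880, and 19 of the 28 higher ones formed a run from chr3:34220880 to chr3:34508880.

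The 2 sides of the gene responded differently when window totals were equalised. Balancing, an alternative chosen after the data were seen, scales each window so that its summed contacts match the expectation, and so removes by construction any change that a window shows with all its partners. Of the 12 lower positions, 8 were still called lower and 4 were called higher. The difference 16 kb to the right of the gene window was then -1.09 (adjusted p = 8.97e-05) and that at the left edge of the gene window -0.73 (adjusted p = 0.00018). Of the 19 higher positions on the left, 7 were still called higher and 5 were called lower, and the difference at chr3:34300880 was 0.070 (adjusted p = 0.0225) in place of 0.84. The rise on the left thus depends on this choice, and the fall at the gene's border does not.

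Compared with ES cells in serum, NPCs were again lower at the gene's border and higher on the left. The 2 comparisons share the NPC libraries. The lowest difference again lay at chr3:34572880, with 0.031 and -0.015 in serum and -0.56 and -0.58 in NPCs (log2 difference -0.58, SE 0.050, adjusted p = 3.04e-05, edgeR). At the left edge of the gene window it was -0.17 (SE 0.047, adjusted p = 0.012). Plain scaling uses library totals with trimmed-mean (TMM) factors, without the distance trend and without the centring on the locus. That call was lost with plain scaling, where the difference was -0.045 (adjusted p = 0.60), and became -0.61 (adjusted p = 0.00035) with balanced windows. At chr3:34300880 NPCs were 0.83 higher (SE 0.053, adjusted p = 1.77e-05), against 0.081 (adjusted p = 0.014) with balanced windows.

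Of the 55 positions, 29 were higher and 12 lower in NPCs than in serum, 74.5% against 67.3% over all loci, where 29% were higher and 38.4% lower. A run of 7 lower positions spanned chr3:34540880 to chr3:34636880, and all 7 were also called lower with balanced windows (-0.82 to -0.30). A second run of 5 lower positions, chr3:34716880 to chr3:34780880, was called higher at all 5 with balanced windows.

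ES cells in serum also had fewer contacts across the gene's border than ES cells in 2i. At chr3:34572880 the difference was -0.84 (SE 0.050, adjusted p = 2.65e-05), at the left edge of the gene window -0.73 (SE 0.047, adjusted p = 2.65e-05), and 80 kb to the right of the gene window -0.91 (SE 0.074, adjusted p = 3.51e-05, edgeR). This last value was the second largest fall of the 404 positions. With balanced windows these 3 differences were -0.27, -0.12 and -0.30, with adjusted p of 0.017, 0.12 and 0.012. Of the 55 positions, 7 were higher and 17 lower in serum, 43.6% against 50% over all loci, where 24.5% were higher and 25.5% lower. The share called in the locus is below that of all loci, and more of it is lower. The count fell to 14 without serum replicate 1 and to 12 without serum replicate 2.

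These profiles are centred on the median of the locus, so a change of the whole locus cannot be seen in them. With plain scaling the median of the 55 positions moved by 0.43 for NPCs against 2i, by 0.15 for NPCs against serum and by 0.29 for serum against 2i. Positions called higher then made up 85.2%, 86.1% and 82.2% of those called, against 70%, 70.7% and 29.2%. Plain scaling leaves out the distance trend as well as the centring. These shifts therefore mix the level of the locus with the distance trend, and the 2 cannot be told apart here.

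Contacts were next summed within and between the 3 domains, over windows at least 32 kb apart. Within the left domain, NPC values were 0.45 and 0.52, against -0.063 and -0.015 in 2i and 0.036 and 0.037 in serum. NPCs were 0.53 higher than 2i on the log2 scale (SE 0.033, adjusted p = 0.0033) and 0.45 higher than serum (SE 0.033, adjusted p = 0.0060, edgeR over the 72 blocks of all loci). These sums hold the same contacts as the rise across positions on the left, which depended on balancing. Blocks were not run with balanced windows. Within the middle domain the order was reversed. Values were 0.47 and 0.36 in 2i, 0.18 and 0.20 in serum and -0.095 and -0.16 in NPCs, without overlap. NPCs were 0.54 lower than 2i (log2 difference -0.54, SE 0.050, adjusted p = 0.0064) and 0.32 lower than serum (log2 difference -0.32, SE 0.050, adjusted p = 0.015).

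Between the left and the middle domain, across the gene's border, values were -0.23 and -0.20 in 2i, -0.36 and -0.33 in serum and -0.42 and -0.44 in NPCs. The border was placed at a minimum of the mean profile of these same libraries, so low values in this block are partly built in. The differences were -0.22 for NPCs against 2i (adjusted p = 0.0064), -0.086 for NPCs against serum (adjusted p = 0.036) and -0.13 for serum against 2i (adjusted p = 0.020). Between the middle and the right domain NPCs were higher, by 0.16 against 2i (adjusted p = 0.018) and 0.22 against serum (adjusted p = 0.011). Within the right domain no comparison passed the test. Between the left and the right domain, serum was lower than 2i (log2 difference -0.16, adjusted p = 0.027), and within the middle domain likewise (-0.22, adjusted p = 0.039).

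Of the 6 blocks, 2 were higher and 2 lower for NPCs against 2i, where 38.9% of blocks passed over all loci (16.7% higher and 22.2% lower). For NPCs against serum 2 were higher and 2 lower (36.1% over all loci, 16.7% higher and 19.4% lower), and for serum against 2i 3 were lower (30.6% over all loci). Without either serum library none of the 6 blocks passed in the 2 comparisons that use serum. With plain scaling the fall within the middle domain was -0.047 for NPCs against 2i (adjusted p = 0.69), the contacts between the left and the middle domain were 0.085 higher (adjusted p = 0.46), and 3 blocks were called higher and none lower. For serum against 2i, 4 blocks were then called higher and none lower. The falls given above are thus relative to the distance trend and to the rest of the locus, both left out by plain scaling.

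**Figure D2:**
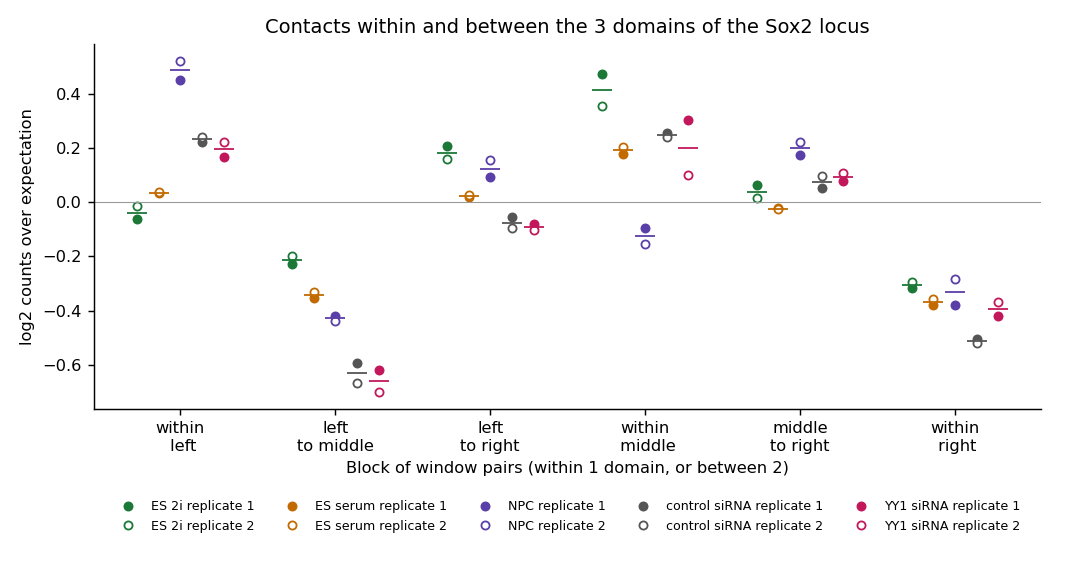
Log2 counts over the distance expectation within each domain and between domains, with the median of the 6 blocks at 0 in each library. Filled and open points are replicates 1 and 2 and short lines are group means of 2 libraries. Within the left domain NPCs (0.45 and 0.52) lie above both ES groups, and within the middle domain (-0.095 and -0.16) below them.

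Single pairs of 16 kb windows show where these differences sit. Of 1885 member window pairs tested, 268 were higher and 242 lower in NPCs than in 2i (27.1%, against 16.9% over all loci, 8.65% higher and 8.2% lower), and 309 were higher and 341 lower in NPCs than in serum (34.5%, against 28.9% over all loci, 14.1% higher and 14.8% lower). For serum against 2i the counts were 219 and 188 (21.6%, against 22% over all loci, 11.7% higher and 10.2% lower). The first 2 shares lie above those of all loci and the third near it. Leaving out 2i replicate 1 lowered the first count from 510 to 290, and leaving out either serum library lowered the second from 650 to 326 and 329. The third fell from 407 to 158 without 2i replicate 1, to 139 without serum replicate 1 and to 94 without serum replicate 2.

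Within the left domain, 119 of 377 window pairs were higher in NPCs than in 2i and 6 lower, and 118 were higher and 23 lower than in serum. Window pairs, like blocks, were not run with balanced windows, so the same limit holds for this rise. Between the left and the middle domain, 65 of 566 were higher and 122 lower than in 2i, and 63 were higher and 164 lower than in serum. This block held 50.4% and 48.1% of all pairs called lower, and 566 of the 1885 pairs tested. The shares called over all loci are those given above. Within the middle domain, 18 of 230 pairs were higher and 33 lower than in 2i, with a median difference over the 230 pairs of 0.012. The summed contacts of that block fell (-0.54), so its sum and its median pair differ in sign. For serum against 2i, 50 of the 230 pairs were higher and 34 lower, with a median of 0.050, while the sum fell by 0.22.

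The largest falls from 2i to NPCs joined windows just left of the gene with windows that begin 96 kb or more to its right. Between chr3:34492880-34508879 and chr3:34652880-34668879, 160 kb apart, there were 1434 and 1514 counts in 2i, 1754 and 1422 in serum, and 217 and 298 in NPCs. Relative to the distance trend this was a log2 difference of -2.68 (SE 0.21, adjusted p = 1.63e-06, edgeR over all 15601 window pairs). The 2 other pairs with the largest falls joined chr3:34508880 with chr3:34652880 (-2.56) and chr3:34492880 with chr3:34668880 (-2.54), the numbers being window starts. The window at chr3:34652880-34668879 had 1 of 61 tested pairs higher in NPCs than in 2i and 33 lower, and a CTCF peak in both ES lists but not in the NPC list. Over all loci 8.65% of window pairs were higher and 8.2% lower. Pairs of 1 window share its primers and are not independent of each other.

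The pair of chr3:34492880 and chr3:34668880 also fell furthest from serum to NPCs. Its counts were 1212 and 1514 in serum and 104 and 109 in NPCs, a log2 difference of -2.50 (SE 0.21, adjusted p = 1.08e-06). From chr3:34524880 to chr3:34652880 the difference from serum was -2.19 and from chr3:34444880 to chr3:34892880 it was -2.17.

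The largest rises in NPCs mostly started from the window directly to the right of the gene window, chr3:34556880-34572879. Its pair with chr3:35036880-35052879, 480 kb away in the right domain, had 633 and 878 counts in 2i, 1785 and 1481 in serum and 2769 and 3108 in NPCs. The log2 difference was 2.11 against 2i (SE 0.18, adjusted p = 3.43e-06) and 2.37 against serum (SE 0.18, adjusted p = 4.46e-07). The same window gained contacts leftwards with chr3:34172880 (2.01 against 2i), chr3:34188880 (1.98 against 2i) and chr3:34124880 (2.09 against serum), 368 to 432 kb away. Of its 61 tested pairs, 29 were higher and 9 lower in NPCs than in 2i, and 40 were higher and 6 lower than in serum. Over all loci 8.65% of window pairs were higher and 8.2% lower against 2i, and 14.1% and 14.8% against serum. This window also held 2 CTCF sites that were not in the NPC list. They were chr3:34563228-34563474 of both ES lists and chr3:34565163-34565409 of the serum list. The window on the other side of the gene, chr3:34524880-34540879, which holds 3 CTCF sites, had 22 higher and 20 lower of 61 against 2i and 19 and 19 against serum. One rise against serum, between chr3:34812880 and chr3:34908880 (1.97), rests on counts of 41 to 151 per library over 3 primer pairs.

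For serum against 2i, window pairs of single windows moved together. The window chr3:34188880-34204879 was higher in serum in 33 of 61 pairs and lower in none, and chr3:34908880-34924879 was lower in 32 of 61 and higher in none. The shares over all loci were 11.7% higher and 10.2% lower. The largest rise joined chr3:34300880 with chr3:34764880 (65 and 101 counts in 2i, 675 and 714 in serum, log2 difference 1.70, adjusted p = 0.00036). The largest fall joined chr3:34812880 with chr3:34908880 (79 and 137 counts in 2i, 41 and 88 in serum, log2 difference -1.92, adjusted p = 0.0028). It rests on 3 primer pairs.

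**Figure D3:**
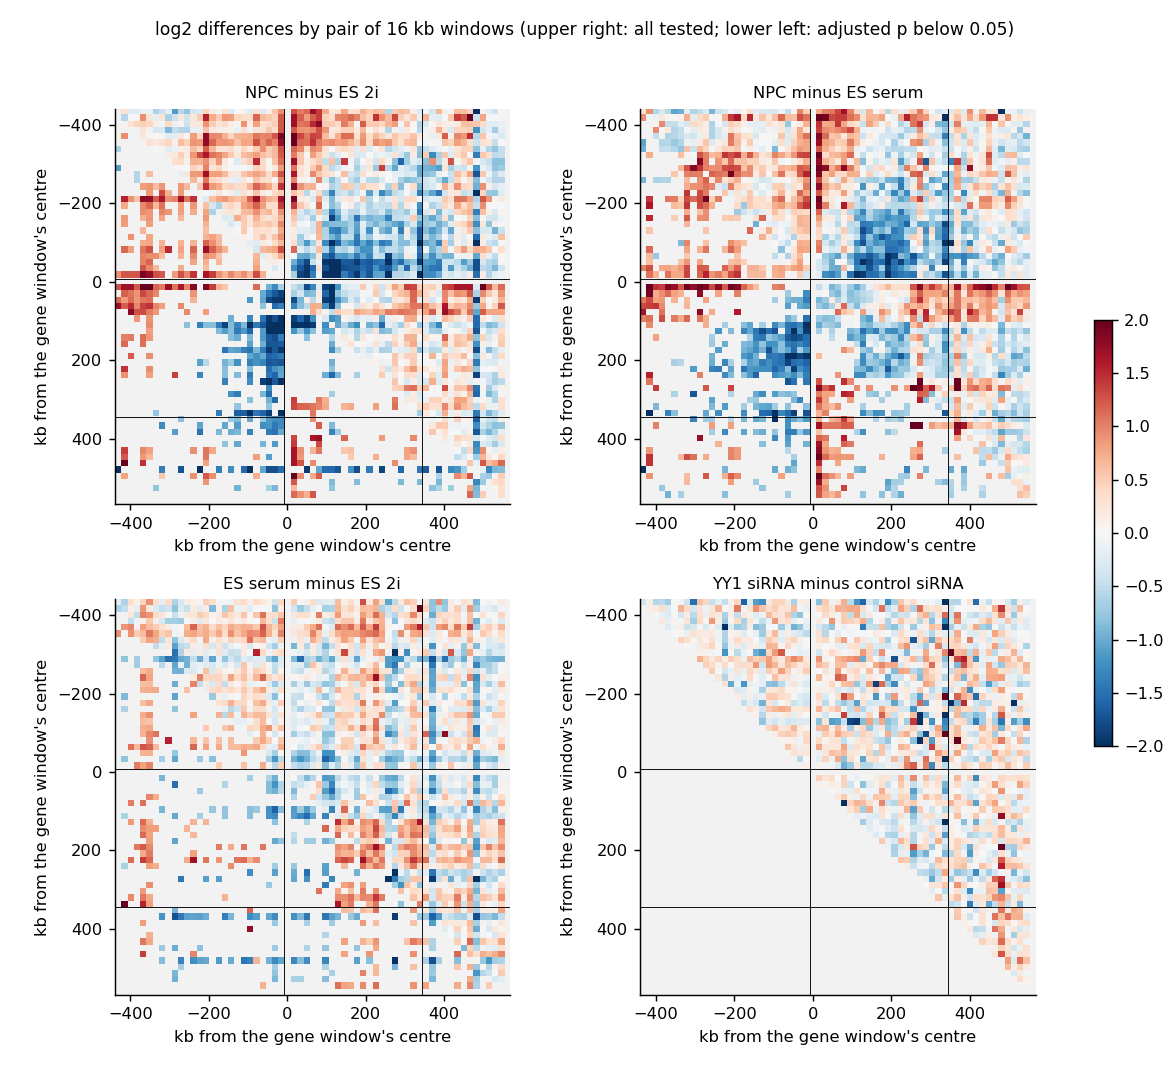
Log2 differences by pair of 16 kb windows for the 4 comparisons, both axes in kb from the centre of the gene window, with the 2 borders as black lines. The upper right of each panel shows all member pairs tested and the lower left those with an adjusted p below 0.05; the siRNA panel has none. Blue pairs in the NPC panels gather where the left domain meets the middle domain, and red pairs within the left domain and in the row next to the gene.

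CTCF peaks were read from 1 deposited list per untreated condition, each from a single library, so no test between conditions is possible. The lists held 20 peaks in the locus for 2i, 20 for serum and 7 for NPCs, of 56138, 50185 and 28860 in the genome. Peaks that overlapped by at least 1 bp were taken as 1 site, which gave 24 sites. Of these, 6 were in all 3 lists, 11 in both ES lists only, 3 in the 2i list only, 3 in the serum list only and 1 in the NPC list only.

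The NPC list held 30.0% of the 2i peaks of the locus and 30.0% of its serum peaks, against 48.3% and 53.5% over the genome. The NPC list is shorter as a whole, and its depth is not stated in the labels, so an absent peak may lie below its threshold. In the middle domain outside the gene window, none of the 10 sites of the ES lists was in the NPC list. In the left domain 4 of 11 were, and in the right domain the single site was.

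Within 16 kb of the border at the gene lay 4 sites, and the nearest summit (chr3:34539826) was 1.05 kb from it. This site, chr3:34539668-34540130, had the highest fold enrichment of the locus in both ES lists (43.8 in 2i and 47.4 in serum, the authors' values), and 14.6 in the NPC list. Beside it lay chr3:34538147-34538574 with 36.7 in 2i, 38.1 in serum and 13.0 in NPCs. A site within the gene window, chr3:34546528-34546999, had 18.1, 34.9 and 10.3. The remaining one of the 4, chr3:34535887-34536217, had 19.1 in 2i and 22.4 in serum and was not in the NPC list. Enrichment was scaled within each list and cannot be compared between lists.

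The other sites of all 3 lists lay far from the gene. They were chr3:35002149-35002513 in the right domain (13.3 in 2i, 38.8 in serum and 29.6 in NPCs), chr3:34227797-34228205 (16.1, 29.2 and 15.2) and chr3:34130844-34131182 (12.1, 6.21 and 6.96). No site lay within 16 kb of the second border, and the nearest summit was 109 kb away. The site listed for NPCs only was chr3:34186877-34187082 (13.9), 354 kb to the left of the gene window.

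Among sites of both ES lists only, the highest enrichment in the serum list belonged to chr3:34475118-34475455 (14.4 in 2i and 33.6 in serum) and chr3:34658831-34659228 (15.5 and 28.1). The latter lies in the window with 33 of 61 pairs lower in NPCs than in 2i. Another such site, chr3:34563228-34563474, lies in the window with 29 of 61 pairs higher and 9 lower. In the 2i list the highest were chr3:34670983-34671305 (24.6 in 2i and 13.8 in serum) and chr3:34290215-34290553 (23.0 and 7.50). Beside these and the site near the border given above, those in the left domain were chr3:34499986-34500390 (15.0 and 23.0) and chr3:34345570-34345853 (8.44 and 13.3). The others in the middle domain were chr3:34587062-34587354 (17.2 and 11.6), chr3:34713315-34713616 (16.2 and 5.94), chr3:34676731-34677032 (9.76 and 7.81) and chr3:34563228-34563474 (9.82 and 8.11). The 2i list alone had chr3:34331508-34331687 (12.5), chr3:34489800-34490021 (11.6) and chr3:34598811-34598982 (7.12). The serum list alone had chr3:34565163-34565409 (11.2), chr3:34640622-34640846 (8.93) and chr3:34650578-34650750 (6.89).

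**Figure D4:**
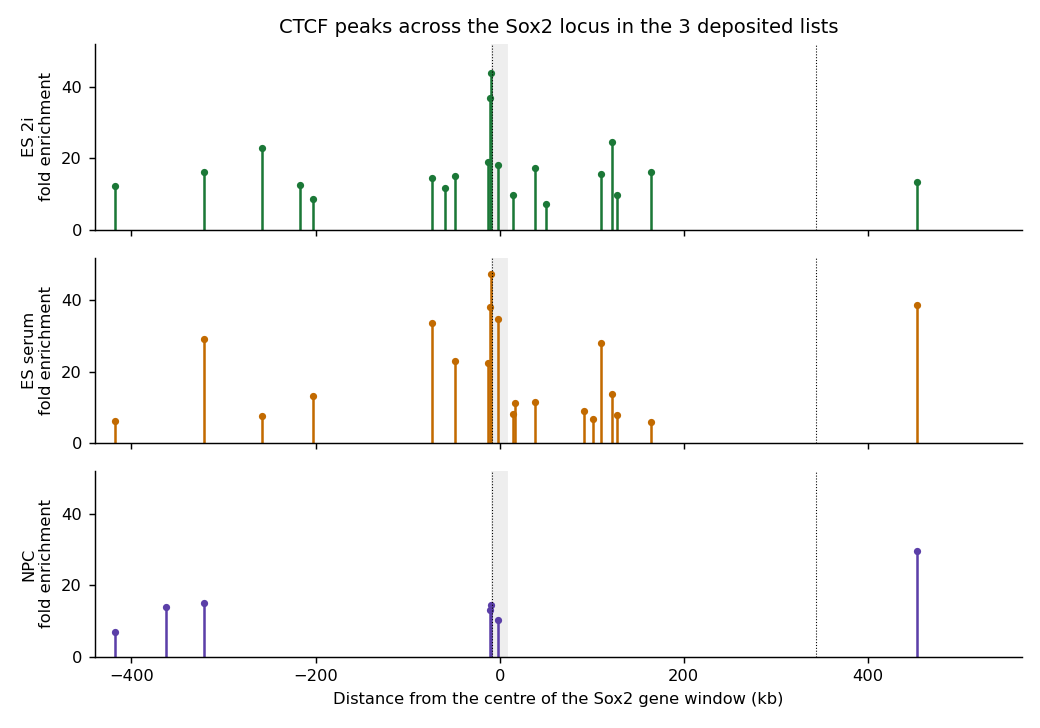
Fold enrichment of the CTCF peaks as given in the 3 deposited lists, against the distance from the centre of the gene window (grey band), with the 2 borders as dotted lines. Between the gene window and the second border, the 2i list has 7 peaks, the serum list 9 and the NPC list none outside the gene window.

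Window pairs were grouped by these sites, at 3 or more windows apart. Pairs with a site of both ES lists but not of the NPC list (ES-only) at both ends had a median log2 difference of -0.41 for NPCs against 2i, with 6 of 32 higher and 13 lower. Against serum the median was -0.44, with 6 higher and 11 lower. Pairs of 2 windows with a site of all 3 lists had medians of 0.89 and 1.19, with 3 and 5 of 6 higher and none lower. Pairs with a site of all 3 lists at one end and an ES-only site at the other had medians of 0.55 and 0.61, with 16 and 17 of 34 higher and 5 lower in each comparison. Pairs with no site at either end had medians of 0.0030 and -0.13 over 837 pairs, with 77 and 71 higher and 89 and 135 lower. All member pairs at these distances had medians of 0.041 and -0.041, with 255 higher and 224 lower of 1710 against 2i (28.0% called) and 271 higher and 296 lower against serum (33.2% called). These groups are small and share windows, and they are given as a description.

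The authors' deposited table of loops sorts 542 looping pixels (pairs of 4 kb bins) of the locus into classes, of which 435 have no bin in the gene window. The classes were called by the authors on the untreated libraries and so restate the same contacts. Of the 435 pixels, 136 were in the class of NPCs only, 105 in the class of 2i and serum, 103 in 2i only, 44 in 2i and NPCs, 39 constitutive, 7 in serum only and 1 in serum and NPCs. The block with most NPC-only pixels was the one within the left domain (44.9%), where no pixel of the 2i and serum class lay. The 2i and serum class lay mostly within the middle domain (68.6%), where 5.88% of NPC-only pixels lay. A single cluster of 72 pixels joined chr3:34556880-34604879 with chr3:34632880-34664879, and its mean deposited score was 72.8 and 74.9 in 2i, 78.6 and 72.1 in serum and 16.7 and 11.7 in NPCs. A cluster of 22 NPC-only pixels joined chr3:34556880-34576879 with chr3:34960880-35004879 in the right domain, with scores of 20.4 and 19.4 in 2i, 22.03 and 22.002 in serum and 70.9 and 69.1 in NPCs. What 1 unit of this score means is not stated in the labels.

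The last comparison asked whether the domain structure of NPCs differs between YY1 siRNA and control siRNA. Both groups had 1 minimum of prominence 0.3 or more, and it lay at the gene window. At its left edge, crossing values were -1.58 and -1.80 with control siRNA and -1.68 and -1.70 with YY1 siRNA, so the libraries overlapped. The difference was -0.0034 (95% interval -0.20 to 0.19, adjusted p = 0.97, edgeR over the 110 positions of both loci). At the right edge of the gene window it was 0.098 (95% interval -0.10 to 0.30, adjusted p = 0.54). A change at this border of more than 0.20 downwards or 0.30 upwards on the log2 scale thus lies outside these intervals.

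None of the 55 positions passed the test, where 4.55% of positions over both loci did, and differences ran from -0.11 to 0.21. The lowest adjusted p was 0.051, and 13 positions had an unadjusted p below 0.05, against 26.4% over both loci. DESeq2 called 9 positions and the fit with a replicate block 8, all higher with YY1 siRNA and all among the 10 positions from chr3:34892880 to chr3:35036880. At chr3:34988880, in that stretch, values were -0.77 and -0.75 with control siRNA and -0.53 and -0.58 with YY1 siRNA, a log2 difference of 0.21 (95% interval 0.077 to 0.33, adjusted p = 0.051, edgeR). The 10 positions differed by 0.14 to 0.21 without overlap of the libraries, where 52.7% of positions over both loci did not overlap, and by 0.012 to 0.055 with balanced windows (lowest adjusted p 0.64).

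YY1 siRNA replicate 1 stood apart 96 to 128 kb to the right of the gene window, with 0.80 against 0.34 in replicate 2 and 0.45 and 0.41 with control siRNA at chr3:34652880. A single primer pair moved with it, between the fragments chr3:34647236-34652180 and chr3:34696299-34699305. It held 38698 counts, or 1.52% of the member counts, in that library, against 0.369% in YY1 siRNA replicate 2 and 0.468% and 0.513% with control siRNA. Without this pair the 3 positions there differed by -0.063 to -0.022 in place of 0.082 to 0.16, and 2 positions of the locus passed the test, with a lowest adjusted p of 0.028.

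**Figure D5:**
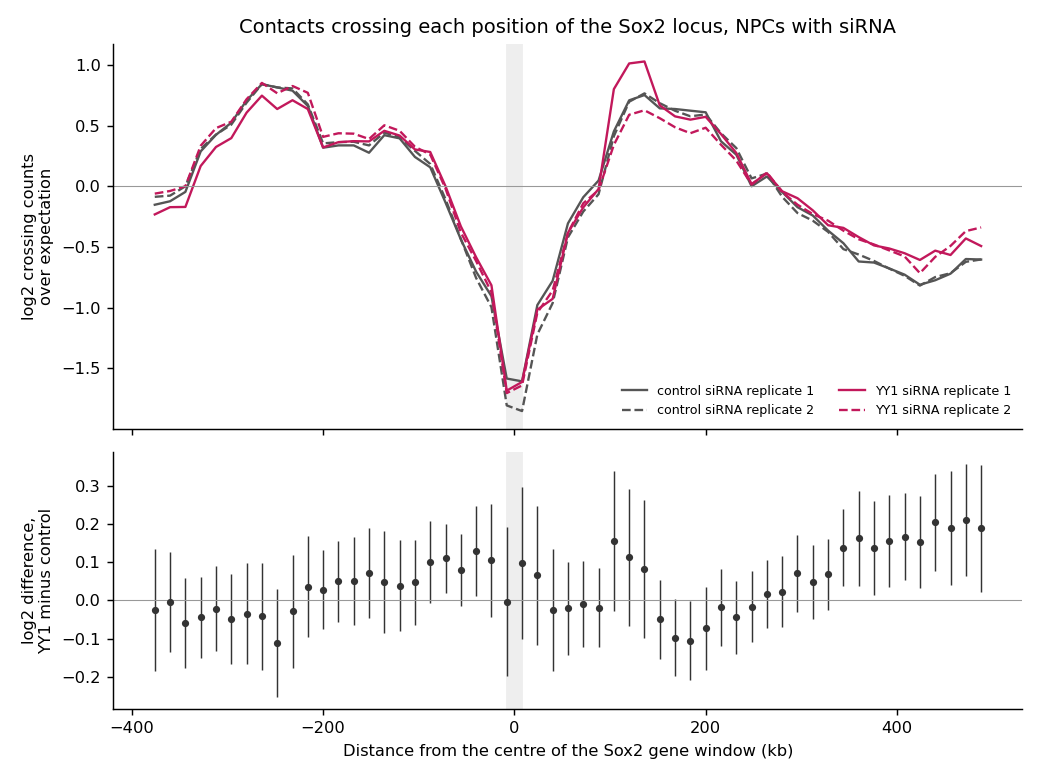
Top, crossing profiles of the 4 siRNA libraries of NPCs, as log2 counts over the distance expectation; bottom, the difference of YY1 minus control siRNA with 95% intervals. The x axis is the distance from the centre of the gene window. The libraries dip to between -1.85 and -1.61 at the right edge of the gene window, and the points on the far right lie at 0.14 to 0.21.

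Of the 6 blocks none passed, where 0% of the 12 blocks of both loci did. DESeq2 called 1, and 1 had an unadjusted p below 0.05, against 16.7% over both loci. The latter was the block within the right domain, with -0.50 and -0.52 with control siRNA and -0.42 and -0.37 with YY1 siRNA (log2 difference 0.12, SE 0.035, adjusted p = 0.21, edgeR). Within the left domain the difference was -0.037 (95% interval -0.15 to 0.074), and within the middle domain -0.044 (95% interval -0.28 to 0.19). Without YY1 siRNA replicate 1, the library that stood apart, 2 blocks passed, and the difference within the middle domain was -0.15. Without YY1 siRNA replicate 2, 5 positions and 13 window pairs passed, and without control siRNA replicate 2, 6 window pairs.

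Of 1878 member window pairs none passed, where 0% of the 3741 pairs of both loci did, and 188 had an unadjusted p below 0.05, or 10.0% against 9.76% over both loci. DESeq2 called 20 higher and 16 lower. The common coefficient of variation between libraries of a group was 0.376 in this experiment against 0.199 in the untreated libraries, so single pairs were measured less precisely. The lowest unadjusted p with a distance of more than 1 window belonged to the pair of chr3:34364880 and chr3:34892880 (log2 difference -2.04, SE 0.36, adjusted p = 0.19).

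The deposited scores of looping pixels moved both ways between the siRNA groups. Over the 136 NPC-only looping pixels, the mean score was 28.2 and 29.7 with control siRNA and 22.05 and 26.4 with YY1 siRNA. Over the 39 constitutive pixels it was 14.6 and 23.0 with control siRNA and 24.1 and 24.0 with YY1 siRNA. The libraries of the 2 groups did not overlap in either class, and the NPC-only scores were lower and the constitutive scores higher with YY1 siRNA. With 2 libraries against 2, an exact permutation test can give no p below 0.33. The class names come from the untreated libraries and describe the siRNA experiment poorly. Constitutive pixels had a mean score of 68.8 in untreated NPCs and 18.8 with control siRNA, and the 2i and serum class 13.1 and 41.0. In the 2i and serum class the scores were 44.9 and 37.1 against 30.7 and 38.9, and in the 2i-only class 18.2 and 19.7 against 17.2 and 29.0, both with overlap. The serum-only class, the 2i and NPC class and the serum and NPC class overlapped as well.

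Clusters of NPC-only pixels also moved both ways. A cluster of 19 pixels that joins chr3:34332880-34360879 with the gene's border (chr3:34532880-34564879) had 19.0 and 21.8 with control siRNA and 10.4 and 13.2 with YY1 siRNA. A cluster of 11 pixels that joins chr3:34124880-34140879 with chr3:34984880-35004879 had 12.4 and 8.46 with control siRNA and 25.2 and 27.7 with YY1 siRNA. The first was lower and the second higher with YY1 siRNA, without overlap. A cluster of 13 pixels that joins chr3:34336880-34352879 with chr3:34980880-34996879 had 43.5 and 48.6 with control siRNA and 17.6 and 21.4 with YY1 siRNA. The cluster of 22 pixels and another of 13 were also lower without overlap. Among the smaller of the 16 NPC-only clusters, those of 6, 5, 4 and 3 pixels that start at chr3:34304880, chr3:34268880, chr3:34444880 and chr3:34620880 were higher without overlap. Those of 5 and 3 pixels that start at chr3:34184880 and chr3:34216880 were lower without overlap. The rest overlapped. Differences in these scores were not tested.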

How the data were processed

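Raw read counts per primer pair were deposited by the authors. Per the submitters' processing notes the tools included Bowtie and the build was mm9, with no version named. The authors' deposited observed values and interaction scores per pair of 4 kb bins were used for an alternative profile and as a description; 41 further per-sample columns were not used. CTCF peaks were called with MACS2, per the submitters' processing notes, and the fold enrichment (a ratio) and −log10 q are the authors' deposited values.

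All possible forward-reverse pairs were used, with 0 where a table lists none, and summed by fragment midpoint into 16 kb windows. For each library and locus, log(count + 0.5) was smoothed over log distance by loess (span 0.5) to give the expected count, per primer pair for positions and blocks, and entered edgeR 4.0.16 (R 4.3.3) as an offset. Positions and blocks were centred on the median of the locus. One model held the 6 untreated libraries and a separate model the 4 siRNA libraries, without covariates and over all loci. Features with a p below 0.05 after Benjamini-Hochberg adjustment over all loci passed. Untreated and siRNA libraries were not tested against each other. A border is a local minimum at least 4 positions from a deeper one. Alternatives included DESeq2 1.42.0, plain TMM scaling, 8 kb windows, other count filters, other reaches and leaving out each library; balanced windows for the tests of positions, the profile from observed values and leaving out the primer pair that stands apart were added after the data were seen. Member features were named by size: up to 4 positions and 3 window pairs per direction and comparison (pairs at least 3 windows apart, with separated libraries and 50 counts, and none with a primer pair over 50% of the counts), the 3 windows with the largest share of called pairs, all blocks, the 8 CTCF sites with the highest enrichment, and those absent from a list. Other features named, such as chr3:34130844-34131182 and the loop clusters, were chosen after their values were seen. Steps were tested on simulated data. Between the 2 libraries of a group, chi-square divided by its degrees of freedom was 21.2 to 95.1, so none was a duplicate. The members and the lists were chosen with earlier results of these data known. No sequence is printed, because no mm9 genome was used here. Python 3.11.15 was used.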

Additional observations from a re-analysis of the deposited data

How the results depend on the processing

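Values on the log2 scale and counts of calls in the Sox2 locus were recomputed under the alternatives run for each kind of feature. Balanced windows and other reaches were run only for positions and boundaries, so the counts for blocks and window pairs do not cover them. Of 536 values for the named positions, 477 kept their direction and their side of the threshold, as did 210 of 276 for the blocks and 231 of 234 for the named window pairs. The cause of the changes below was not tested, except for what the settings do by construction. Plain scaling leaves out the distance trend and the centring on the locus, and balancing removes window effects. Single pairs are limited by counts of 41 to 151 at chr3:34812880-34908880, and in the siRNA comparison by the spread between its libraries. For positions and blocks the common coefficient of variation was not larger with siRNA (0.049 and 0.085) than in the untreated libraries (0.061 and 0.098).

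Plain scaling called 792 window pairs for NPCs against 2i, 45 positions for serum against 2i and 1 block for NPCs against serum. It reversed positions chr3:35036880 for serum against 2i (0.067) and chr3:34668880 and chr3:34716880 for NPCs against 2i (0.088 and 0.23). For serum against 2i it reversed the blocks left to middle (0.29), left to right (0.32), within middle (0.060), middle to right (0.33) and within right (0.18). For NPCs against 2i it reversed left to middle (0.085), left to right (0.29) and within right (0.50), for NPCs against serum left to right (-0.035), and for YY1 siRNA left to middle (0.020) and left to right (0.099).

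Balanced windows left 12 positions for serum against 2i and 1 boundary in each untreated group and in their mean, at an edge of the gene window. They reversed serum against 2i at chr3:34524880 (0.010), chr3:34860880 (-0.033) and chr3:34892880 (-0.030), NPCs against 2i at chr3:34252880 (-0.11), chr3:34668880 (0.16) and chr3:34716880 (0.22), and NPCs against serum at chr3:34252880 (-0.0014), chr3:34348880 (-0.11) and chr3:34748880 (0.11). With 4 windows on each side there were 4 boundaries in 2i, serum and control siRNA and 5 in YY1 siRNA, and reversed values were -0.089 at chr3:34860880 for serum against 2i, -0.0058 at chr3:34892880 for NPCs against serum and 0.11 at chr3:34540880 for YY1 siRNA. With 12 windows there was 1 boundary in each untreated group and the mean, and NPCs against serum reversed at chr3:34748880 (0.033) and chr3:34892880 (-0.0023). A prominence of 0.5 left 1 boundary in serum, NPCs and the mean, a prominence of 0.2 gave 2 in each siRNA group, and the authors' deposited observed values gave 1 in NPCs and the mean.

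With 8 kb windows 1280 window pairs passed for NPCs against serum and 738 for serum against 2i. DESeq2 called 36 window pairs, 9 positions and 1 block for YY1 siRNA. Including adjacent windows called 1 position for YY1 siRNA and reversed chr3:34892880 for serum against 2i (-0.060) and chr3:34540880 for YY1 siRNA (0.015). Without the largest primer pair 2 blocks passed for NPCs against serum, and reversed values were 0.0089 at chr3:34540880 for YY1 siRNA, 0.059 within right for NPCs against 2i, and 0.035 and 0.037 left to middle and left to right for YY1 siRNA. A mean count per distance reversed within right for NPCs against 2i (0.074). Without the primer pair that stands apart 2 positions passed for YY1 siRNA. Of the serum CTCF peaks 13 of 20 had a −log10 q of 20 or more.

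Leaving out 1 library at a time gave 290 to 461, 326 to 661 and 94 to 454 window pairs for NPCs against 2i, NPCs against serum and serum against 2i, and 0 to 13 for YY1 siRNA. In the same order there were 33 to 40, 31 to 42, 12 to 28 and 0 to 5 positions, and 3 to 4, 0 to 4, 0 to 2 and 0 to 2 blocks. YY1 siRNA had 1 to 2 boundaries. For YY1 siRNA, chr3:34540880 ran from -0.11 to 0.11, and the blocks left to middle from -0.072 to 0.0091, left to right from -0.037 to 0.0054, within middle from -0.15 to 0.053 and middle to right from -0.0020 to 0.041. Within right ran from -0.075 to 0.023 for NPCs against 2i and from -0.011 to 0.087 for NPCs against serum. Of these, only within middle for YY1 siRNA without YY1 siRNA replicate 1 passed (-0.15, adjusted p = 0.043). A lone library left in a group is assumed to vary like the others.

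The labels do not say that a replicate number marks a shared batch. Deviations from group means of same-numbered libraries correlated at 0.020 to 0.085 over all loci, and over the Sox2 locus at 0.14 (2i and NPCs), 0.10 (2i and serum), 0.092 (serum and NPCs) and -0.026 (siRNA groups), so the libraries were not taken as paired. With a replicate block 619, 741, 508 and 17 window pairs, 40, 42, 28 and 8 positions and 4, 3, 2 and 0 blocks passed for the comparisons in the order above, and chr3:34540880 reversed for YY1 siRNA (0.0010).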
